A study of Rattus norvegicus with 6 samples.

Results

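Gfra1, Gfra2 and Ret, the receptor genes for the glial cell line-derived neurotrophic factor (GDNF) family that are described here, were followed over the pineal gland, 3 structures of the third ventricle and the whole brain of the rat. They were chosen by name because an earlier look at these arrays had shown Gfra1 to stand out in the subcommissural organ, so its level there is given as a description, with no test. All probes annotated with 1 of these symbols were taken, 8 of 35129 probes, with 3 for Gfra1, 2 for Gfra2 and 3 for Ret. They stand for 3 of 12167 named genes.

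The samples came from adult male Sprague-Dawley rats described only as normal, with no treatment or transgene named and no age beyond adult. The pineal gland had 2 arrays, and total brain had 1, as did the subfornical organ, the subcommissural organ and the ependyma lining the third ventricle. The 3 ventricular structures were each a pool of 2, and total brain was a pool used as reference. Structures were cut out by laser, and 3 ng of RNA from each sample was amplified in 2 rounds, per the labels.

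The GDNF family signals through a receptor made of a ligand-binding part and a signalling part. The ligand-binding part is a protein of the GDNF family receptor alpha group, held to the membrane by a lipid anchor. Gfra1 prefers GDNF and Gfra2 prefers neurturin. The signalling part is Ret, a receptor tyrosine kinase that spans the membrane and on which the alpha receptors depend for kinase signalling, although GDNF bound to Gfra1 can also act through the adhesion molecule Ncam1. In the nervous system these receptors are best known from dopamine neurons, motor neurons, sensory neurons and enteric neurons. The subcommissural organ is built of secretory ependymal cells under the posterior commissure and releases glycoproteins into the cerebrospinal fluid.

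Because Gfra1 carries the main pattern, the 250 bases before its listed start are shown with those of the genes nearest to it in pattern that have an entry, Lratd1 and Rgs8, whose values follow further on. The likeness of Rgs8 rests on the subcommissural array alone. The sequences are from RefSeq, build GRCr8, and read 5′ to 3′ on the strand of the gene. The windows are chr1:267555812-267556061 on the minus strand for Gfra1, chr6:42650989-42651238 on the minus strand for Lratd1 and chr13:68366648-68366897 on the plus strand for Rgs8. The Gfra1 window lies inside the span listed for the whole gene, 267325297 to 267557037. It thus precedes the start of the entry used, not the outermost start of the gene. Capitals mark the GC box, GGGCGG on either strand.
Gfra1: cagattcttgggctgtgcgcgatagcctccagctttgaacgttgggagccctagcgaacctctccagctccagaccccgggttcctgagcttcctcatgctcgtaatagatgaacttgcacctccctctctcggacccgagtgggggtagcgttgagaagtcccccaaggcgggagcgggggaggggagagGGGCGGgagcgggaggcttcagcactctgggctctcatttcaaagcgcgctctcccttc
Lratd1: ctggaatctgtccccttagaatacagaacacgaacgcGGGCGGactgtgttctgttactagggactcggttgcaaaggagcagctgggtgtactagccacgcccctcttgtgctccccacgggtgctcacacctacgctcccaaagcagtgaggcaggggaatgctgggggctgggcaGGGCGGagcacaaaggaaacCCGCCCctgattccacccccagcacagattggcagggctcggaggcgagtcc
Rgs8: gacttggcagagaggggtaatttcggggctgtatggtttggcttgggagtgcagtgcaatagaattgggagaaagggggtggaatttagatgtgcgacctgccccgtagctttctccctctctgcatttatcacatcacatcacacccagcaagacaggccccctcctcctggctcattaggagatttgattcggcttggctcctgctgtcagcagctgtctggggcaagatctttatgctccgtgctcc
Gfra1 held 1 GC box, starting 59 bases before the start, Lratd1 held 3 and Rgs8 held 0. Of 33469 windows of this length, 30.5% held at least 1. CCAAT was absent from the Gfra1 window and present once each in those of Lratd1 and Rgs8, against 34.0% of all windows. None of the 3 windows held TGACG, the core of the cAMP response element, or TATAAA, on either strand, against 18.2% and 12.9% of all windows. The GC content was 62% for Gfra1, 61.6% for Lratd1 and 53.6% for Rgs8, with a median of 51.2% over all windows. Of the 3 receptor genes 2 had an entry, and of the 8 genes nearest to Gfra1 7 had one.

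Values are the intensities the authors deposited, on a linear scale, and the median over all probes and arrays was 1.05. The array medians ran from 1.04 to 1.07 and the 75th percentiles from 4.90 to 7.93. No detection call was used, so levels near or under 1.05 are read as near background, and a fold whose smaller value was beneath 1.05 is written as a bound against 1.05. The tissue labels were checked against marker genes. The summed level of 7 pineal genes was 1620 and 1319 on the pineal arrays and 5.76 to 7.91 on the others, and that of 9 motile cilia genes was 2027 in the ependyma and 1686 in the subcommissural organ against 18.0 to 381 elsewhere. Of the subcommissural list, 6 genes summed to 579 in that organ against 16.1 to 207 elsewhere, but that list had been drawn from earlier results of these arrays. SCO-spondin, the main product of the organ, was not analysed here. The 5 subfornical genes summed to 148 in the subfornical organ against 7.75 to 43.2 elsewhere, but Crygs alone was at 139 there. Agtr1a, Scn7a, Ramp3 and Plvap were each higher on another array, so that label rests on 1 gene of its list. The pineal pair gave the only measure of spread. Over 8006 genes the standard deviation (SD) of its log2 difference was 0.65, with a median offset of 0.42 and 1.12% of genes at least 4-fold apart. Nothing says that the 2 pineal arrays came from separate animals, so this spread may be technical. For the receptors the first pineal array exceeded the second by 0.33 for Gfra1, 0.37 for Gfra2 and 1.40 for Ret on the log2 scale.

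Gfra1 stood at 361 in the subcommissural organ on its brightest probe. On that probe it was at 22.9 in total brain, 14.0 in the subfornical organ, 6.92 in the ependyma, and 4.23 and 3.37 in the pineal gland, 3.80 ± 0.610 (SD, n = 2). The subcommissural organ was thus the high sample, and the other 5 arrays lay far beneath it, between 3.37 and 22.9. The fold was 15.7 over total brain, 25.8 over the subfornical organ, 52.2 over the ependyma and 95.6 over the pineal gland, whose level is the geometric mean of its arrays. The log2 differences were 3.98, 4.69, 5.71 and 6.58. These are single arrays on at least 1 side, so the differences have no replicate check. In bulk samples, fewer cells of a type and less RNA per cell cannot be told apart.

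The other probes of Gfra1 gave the same highest tissue. On the second probe the level was 113 in the subcommissural organ, 6.94 in total brain, 2.25 in the subfornical organ, 2.02 in the ependyma, and 0.553 and 0.298 in the pineal gland. Its folds were 16.2 over total brain and 55.8 over the ependyma, close to those of the brightest probe. It was 50.1-fold above the subfornical organ and at least 107-fold above the pineal gland. The third probe was dim, with 3.96 in the subcommissural organ and between 0.0101 and 0.501 on the other arrays, at least 3.76-fold higher. All 3 probes are annotated to 1 gene and read the same RNA samples, so they are not replicates.

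**Figure D1:**
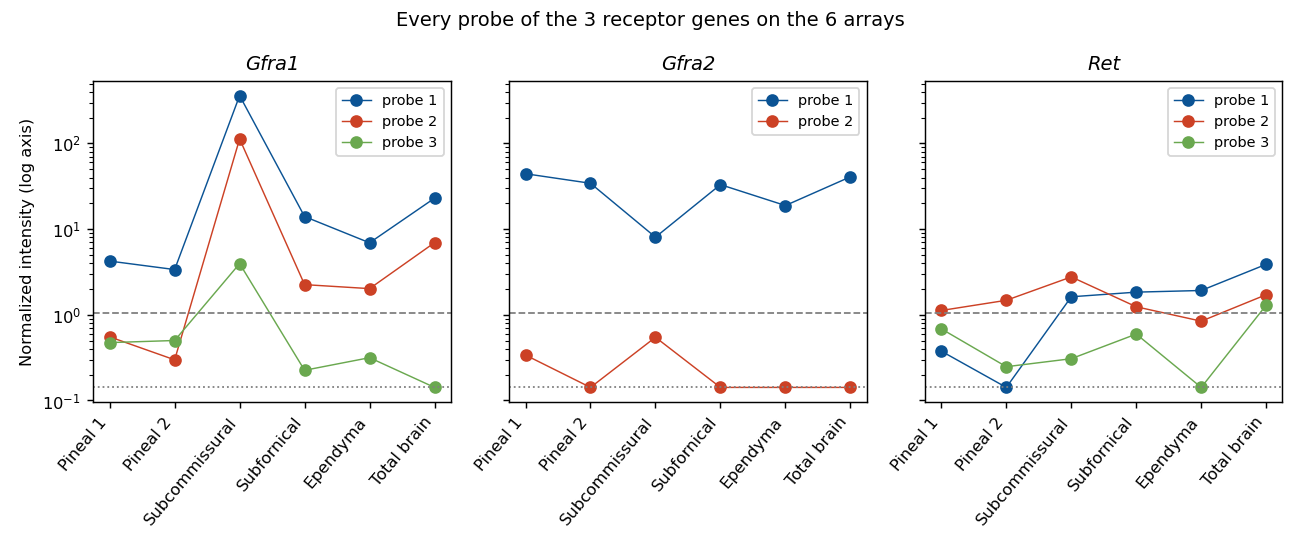
Normalized intensity (log axis) of every probe of Gfra1, Gfra2 and Ret on the 6 arrays, numbered by brightness, with lines that only join the points of a probe. The dashed line is the pooled median of 1.05 and the dotted line the floor of 0.142, to which lower values are raised; Gfra1 peaks in the subcommissural organ on all 3 probes, at 361, 113 and 3.96.

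Few genes stood this far above every other array in the subcommissural organ. Of 9990 genes that reached the pooled median on at least 1 array, 60 (0.601%) were at least 4-fold above each of the other arrays there, and Gfra1, at 15.7-fold, ranked 8th by that margin. Gfra2 and Ret were not in that group. Below total brain, the order of Gfra1 levels was subfornical organ, ependyma and pineal gland, with steps of 0.71, 1.02 and 0.87 on the log2 scale. The SD of the pineal pair was 0.65 over all measured genes and 0.78 for those between the pooled median and 75th percentile. The steps to the ependyma and the pineal gland exceeded both, at 1.58 and 1.35 times the first. The step of 0.71 from total brain to the subfornical organ exceeded the first of these SDs and not the second. On the second probe the subfornical organ and the ependyma were 0.15 apart on the log2 scale. Steps this near to 1 SD do not settle an order, so the order of neighbours below the subcommissural organ is not settled.

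**Figure D2:**
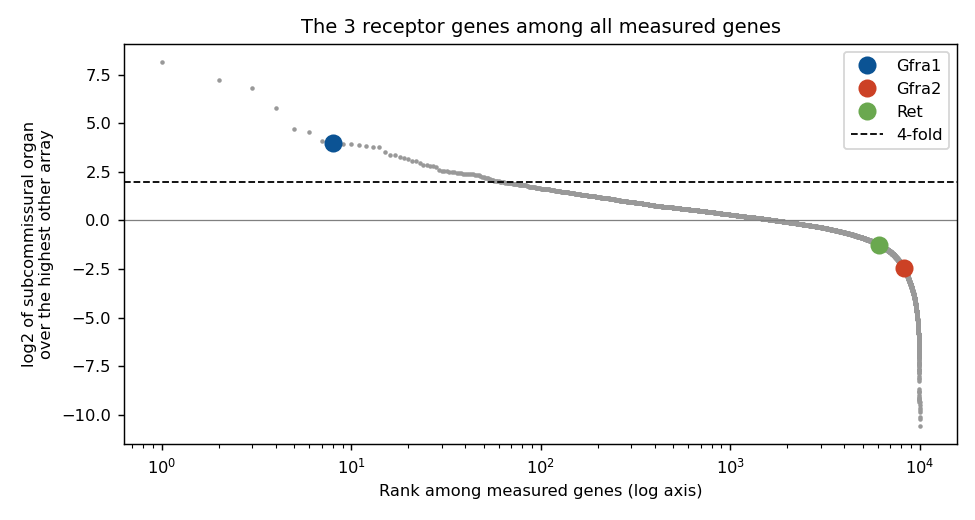
The log2 ratio of the subcommissural organ to the highest other array for 9990 genes, in rank order (log axis), 1 point per gene. Gfra1 is at rank 8 with 3.98, above the dashed 4-fold line, while Ret at -1.26 and Gfra2 at -2.46 lie below 0.

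Gfra2, which binds neurturin, showed another pattern. On its brighter probe it stood at 40.7 in total brain, 44.3 and 34.3 in the pineal gland (39.3 ± 7.07, SD, n = 2), 33.0 in the subfornical organ, 18.8 in the ependyma and 8.05 in the subcommissural organ. The subcommissural organ was the low sample and lay beneath all 5 other arrays. It was 5.06-fold lower than total brain, 4.84-fold lower than the pineal gland, 4.10-fold lower than the subfornical organ and 2.34-fold lower than the ependyma. Of 9990 genes, 462 (4.62%) were at least 2-fold below every other array in this organ, and Gfra2 ranked 346th. Being lowest in this organ by any margin was common, at 17.4% of the same genes. Total brain, the pineal gland and the subfornical organ did not differ by more than 1 SD of the pineal pair between neighbours, with steps of 0.07 and 0.24. The steps down to the ependyma, 0.81, and on to the subcommissural organ, 1.23, were 1.26 and 1.90 times that SD. The second probe of Gfra2 was between -0.0533 and 0.547 on all arrays, under the pooled median throughout, and gave no usable level.

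Ret, the signalling receptor, was dim on every array and probe. On its brightest probe it was at 3.88 in total brain, 1.92 in the ependyma, 1.84 in the subfornical organ, 1.62 in the subcommissural organ, and 0.376 and 0.0219 in the pineal gland. Total brain was the high sample and both pineal arrays were under the pooled median. Levels in the subfornical organ, the ependyma and the subcommissural organ differed by less than 1 SD of the pineal pair from neighbour to neighbour, with steps of 0.06 and 0.18. The second probe gave another order, with 2.77 in the subcommissural organ, 1.72 in total brain, 1.24 in the subfornical organ, 0.842 in the ependyma, and 1.12 and 1.48 in the pineal gland. There the subcommissural organ was highest, 1.61-fold above total brain and at least 2.63-fold above the ependyma. The third probe reached the pooled median in total brain alone, at 1.30. Which tissue has most Ret, and whether the subcommissural organ lies above or below total brain, therefore depends on the probe.

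Counted together, 1 of the 3 genes (Gfra1) was at least 4-fold different in the subcommissural organ against the ependyma, where 12.9% of 8891 measured genes were, 5.01% higher and 7.9% lower. Against total brain it was 2 of 3, with Gfra1 higher and Gfra2 lower, beside 23.7% of 9125 genes, 8.76% higher and 14.9% lower, and against the subfornical organ the same 2, beside 19.4% of 9039. Against the pineal gland all 3 were counted, with a background of 18.5% of 8844 genes, but Ret is at least 1.54-fold higher there once its pineal level is set at the pooled median. Since the genes were chosen for the subcommissural organ, nothing is read from these shares. Between the subfornical organ, the ependyma and total brain none of the 3 genes was 4-fold apart, with backgrounds of 17.0% for either structure against total brain and 13.6% between the structures.

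The pineal gland was the only tissue with a replicate, and it was tested against total brain and against the ependyma with limma over all measured genes. Its fit has 1 residual degree of freedom, and it takes total brain or ependyma, each a single array, to vary as the pineal pair does. The moderated standard error came out the same for every gene, 0.73 and 0.72 on the log2 scale, so a call amounts to a difference of at least 1.82 or 1.85. Against total brain 2 of the 3 genes fell, beside 24.0% of 9076 genes called, 16.3% lower. Of all genes 4-fold apart in this comparison 32.2% were higher, and 44.7% after quantile normalization, which moved the median of all genes from -0.45 to 0.03. Gfra1 fell by 2.60 on the log2 scale, from 22.9 to a geometric mean of 3.78 (6.07-fold), with a standard error of 0.73 and an adjusted p of 0.0024, and was lower on both arrays. Its adjusted p ranged from 9.77e-05 to 0.10 over 6 alternatives, and the limma call held in 3 of them. Ret fell by 4.07 with an adjusted p of 4.13e-07, at least 3.69-fold with the pineal level set at the pooled median, and was lower on both arrays. The limma adjusted p for Ret ran from 8.08e-04 to 0.091 over 5 alternatives, of which 4 kept the call. The second probe of Ret showed a log2 difference of -0.41, so this call rests on the brightest probe.

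Gfra2 did not pass in either pineal comparison. The limma estimate against total brain was -0.07, with a 95% interval from -1.49 to 1.36 and an adjusted p of 0.97. Against the ependyma it was 1.05, from -0.36 to 2.46, with an adjusted p of 0.38 by limma. These intervals are wide and do not show equal levels. For Gfra1 against the ependyma the limma estimate was -0.87, with an interval from -2.28 to 0.54 and an adjusted p of 0.51. Ret was the 1 of 3 genes called against the ependyma, beside 20.3% of 8962 genes, 13.0% lower. Its limma difference was -3.05 with an adjusted p of 2.47e-04. The pineal levels were under the pooled median, so the bound leaves at least 1.83-fold. None of 4 alternatives kept the limma call, with adjusted p between 0.062 and 0.12. The second probe gave 0.61, the opposite sign, where the bound is 0.29. Against the subfornical organ, which was not tested, Gfra1 was 3.71-fold lower in the pineal gland and Ret at least 1.75-fold lower. Ret was past 4-fold there before the bound was set, beside 18.7% of 8997 genes.

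**Figure D3:**
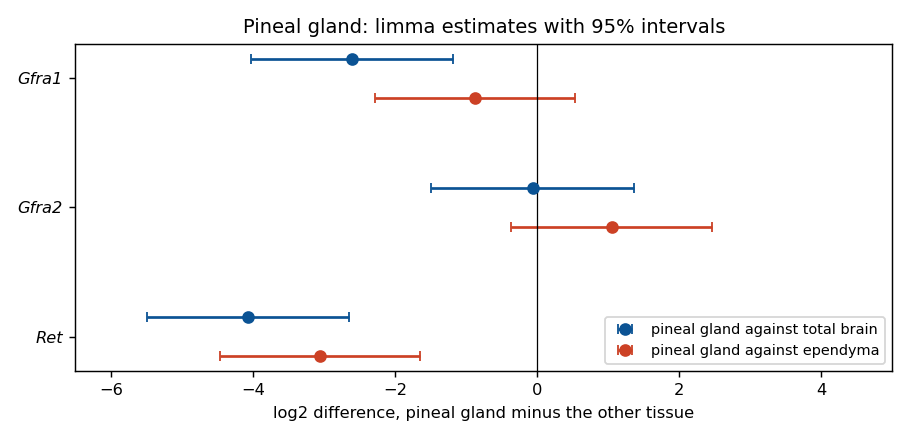
Log2 difference of the pineal gland from total brain and from the ependyma for the 3 genes on their brightest probes, with 95% intervals from limma (n = 2 pineal arrays against 1). The intervals of Gfra1 against total brain and of Ret in both comparisons lie below 0, and those of Gfra2 include 0.

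The ligands of the family were then followed from a list of 5 genes, of which 4 had a named probe. Nrtn, which encodes neurturin, was measured on every array, at 38.4 and 57.0 in the pineal gland, 44.2 in total brain, 20.7 in the subfornical organ, 15.9 in the ependyma and 11.4 in the subcommissural organ. The subcommissural organ was the low sample, 3.89-fold below total brain and 1.40-fold below the ependyma. Gdnf itself was under the pooled median in the subcommissural organ (0.213), the ependyma (0.759) and total brain (0.738), and Pspn, the gene of persephin, also lay under it in these samples. Gdf15, a distant relative that signals through Ret with another co-receptor, was at 4.43 in the subfornical organ and between 0.915 and 1.70 on the other arrays. Neither of the 2 measured ligands was 4-fold different in the subcommissural organ against the ependyma or total brain, where 12.9% and 23.7% of all genes were. Limma called neither in the pineal gland against total brain or ependyma, beside 24.0% and 20.3% of all genes. With 2 genes, nothing is read from these counts. Nrtn was 4.11-fold lower in the subcommissural organ than in the pineal gland, and Gdf15 was at least 4.22-fold lower in the pineal gland than in the subfornical organ.

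Of 7 genes listed either as other co-receptors or as membrane proteins that bind GDNF, 3 had a named probe. Gfra3, the receptor for artemin, was at 9.16 in the subcommissural organ, 4.93 and 4.48 in the pineal gland, 3.37 in total brain, 3.17 in the subfornical organ and 1.76 in the ependyma. The subcommissural organ was again the high sample, 5.20-fold above the ependyma and 2.72-fold above total brain. Its second probe did not bear out that order, with 2.68 in the subcommissural organ and 3.38 in the subfornical organ. Ncam1, the adhesion molecule that can serve GDNF in place of Ret, was at 9.27 in the subcommissural organ, 51.9 in total brain, 48.7 in the ependyma, 47.5 in the subfornical organ, and 49.9 and 23.6 in the pineal gland. The subcommissural organ was the low sample, 5.60-fold under total brain and 5.26-fold under the ependyma. Sdc3, a heparan sulphate proteoglycan that binds GDNF, was at 36.0 in the subcommissural organ, 1.31-fold under the ependyma and 2.12-fold under total brain.

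Of 23 adaptors and kinases through which Ret signals, 17 had a named probe. None of the 11 measured was 4-fold apart between the subcommissural organ and the ependyma, where 12.9% of all genes were, and their median was 0.29 beside 0.06 for all genes. The widest gaps there, named after their values were seen, were the docking protein Frs2 at 48.4 against 18.8, 2.57-fold higher, and the kinase Src at 3.48 against 8.78, 2.52-fold lower. Against total brain 1 of 14 was 4-fold lower before the bound was set, beside 14.9% of all genes, with a median of -0.67 beside -0.29. That gene was Grb10, an adaptor that binds activated receptor kinases, at 0.518 against 3.71, at least 3.53-fold lower once the bound was set. Against the pineal gland 2 of 13 were 4-fold higher and 2 lower, beside 18.5% of all genes either way. In the pineal gland against total brain limma called 1 of 13 higher and 4 lower, beside 24.0% of all genes called and 16.3% lower; these are named after their values were seen. Irs1 was 4.54-fold higher, and Frs2, Src and Rap1gap were 4.26-fold, 4.42-fold and 4.31-fold lower. Dok5, under the pooled median on both pineal arrays, was at least 3.12-fold lower. Against the ependyma limma called 1 of 13 higher and 2 lower, beside 20.3% of all genes called and 13.0% lower. Irs1 was at least 5.41-fold higher, Dok5 at least 6.25-fold lower and Src 4.31-fold lower. The second probe of Src did not bear this out, with 2.21 and 3.80 in the pineal gland against 2.74 in the ependyma, and 8.80 in total brain. The second probe of Irs1 was under the pooled median on all arrays.

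No listed gene that responds to Ret signalling or damps it was 4-fold higher in the subcommissural organ than in the ependyma or total brain. Of all genes 5.01% and 8.76% were, so with this few genes nothing is read from that. Of 9 listed, 7 were measured in the subcommissural organ against the ependyma, and 2 were 4-fold lower before the bound was set, beside 7.9% of all genes. Their median was 0.41 beside 0.06 for all genes. Vgf, a secreted peptide precursor of neurons, was at 2.35 in the subcommissural organ, 19.9 in the ependyma, 8.55 in the subfornical organ, 77.3 in total brain, and 0.605 and 1.13 in the pineal gland. It was 8.48-fold lower in the subcommissural organ than in the ependyma. Etv4, an ETS transcription factor induced by Ret in the kidney, was at 0.285 against 1.35, near background on both sides, and the bound leaves at least 1.28-fold. Against total brain 3 of 7 were 4-fold lower before the bound, beside 14.9% of all genes. Vgf was 32.9-fold lower and Spry4 at least 12.8-fold, whereas Etv4 was at least 1.24-fold lower once the bound was set. The median was -1.80 beside -0.29 for all genes. Spry4, a feedback inhibitor of receptor kinase signalling, was at 1.04 in the subcommissural organ and 13.4 in total brain. In the pineal gland limma called 1 of 7 measured lower than in total brain, beside 24.0% of all genes called and 16.3% lower. Against the ependyma it called 1 of 7 lower and 1 higher, beside 20.3% of all genes called and 13.0% lower. The lower gene was Vgf in each, near background in the pineal gland at 0.605 and 1.13. The gene called higher than in the ependyma was Spry4, by 2.16 on the log2 scale. With this few genes nothing is read from these counts.

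**Figure D4:**
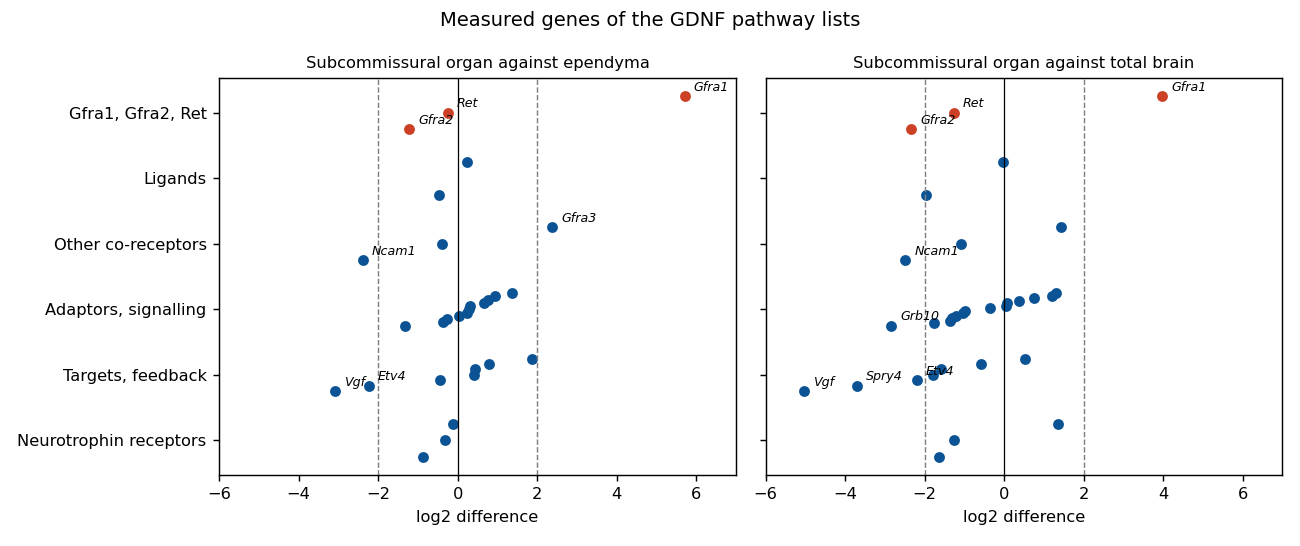
Log2 difference of each measured gene of the 6 lists in the subcommissural organ against the ependyma and against total brain, 1 point per gene, with dashed lines at 4-fold. Gfra1 lies at 5.71 and 3.98, to the right of every other gene of these lists, and the named points past the left line include Vgf and Ncam1.

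Genes with the pattern most like that of Gfra1 were sought among 6836 genes that reached the pooled 75th percentile, 6.04, on at least 1 array. Likeness was the distance between log2 profiles over the 6 arrays, each centred on its own mean. The 8 nearest genes were Lratd1, Rgs8, C1ql1, Dpy19l1, Dzip1, Vipr2, Cdhr5 and Qprt, at distances from 1.89 to 2.38, with Pearson correlations between 0.92 and 0.99 over the 6 arrays, a description that leans on the 1 high array. After quantile normalization 7 of the 8 were again among the nearest. Lratd1 was at 91.3 in the subcommissural organ, 15.5 in the subfornical organ, 7.60 in total brain, 4.55 in the ependyma, and 1.22 and 1.005 in the pineal gland. C1ql1, a secreted protein related to complement C1q, was at 51.9 in the subcommissural organ and between 2.19 and 12.6 elsewhere. Vipr2, a receptor for vasoactive intestinal peptide and PACAP, was at 35.8 there, 14.4 in total brain and 1.499 to 3.76 elsewhere. Rgs8, which speeds the shut-off of G proteins, was at 10.98 in the subcommissural organ and at 1.06 or less on the other arrays. Dzip1, which acts in the assembly of cilia, was at 83.5 against 3.16 to 20.8, and Qprt, an enzyme of NAD synthesis, at 80.7 against 5.16 to 12.2. Cdhr5, a cadherin of microvilli, stood at 11.8 against 0.340 to 0.699. Both Rgs8 and Cdhr5 were near background outside the subcommissural organ and passed 6.04 through that array alone. Their likeness to Gfra1 thus rests on that array. Dpy19l1, a sugar transferase, was at 44.6 against 1.83 to 7.38.

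**Figure D5:**
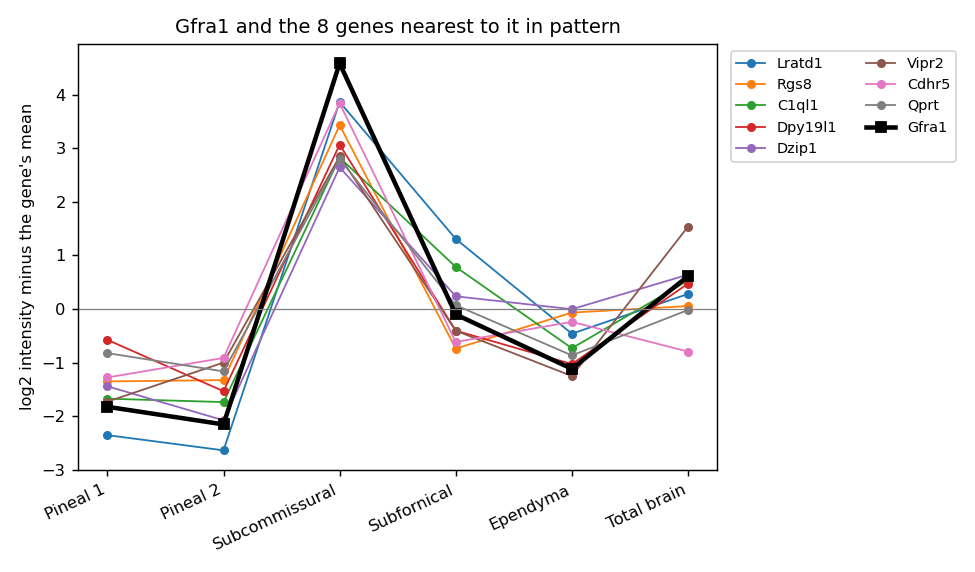
Log2 intensity minus the mean of each gene for Gfra1 (black squares) and the 8 genes nearest to it, over the 6 arrays, with lines that only join the points of a gene. All 9 genes are highest in the subcommissural organ, and Gfra1 stands highest above its own mean there.

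The genes nearest to Gfra2 and Ret were others. For Gfra2 they were Zmiz1, a transcription coactivator, Emc9, a subunit of a membrane protein insertion complex, and Ostf1, at distances from 0.39 to 0.57. All 3 were lowest in the subcommissural organ, with Zmiz1 at 13.2 against 41.9 to 78.7, Emc9 at 10.99 against 18.1 to 51.0, and Ostf1 at 4.77 against 10.3 to 21.7. For Ret they were Grik4, a kainate receptor subunit, Ppp2r2b, a subunit of protein phosphatase 2A, and Ccp110, a centriole protein, at distances from 0.70 to 0.77. These were highest in total brain, with Grik4 at 57.4, and lowest in the pineal gland. Over the 6 arrays the correlation of Gfra1 with Gfra2 was -0.79, that of Gfra1 with Ret 0.54 and that of Gfra2 with Ret -0.27, as descriptions.

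Markers of other cell types were set beside the Gfra1 level. The 10 neuron markers summed to 68.5 in the subcommissural organ, the lowest of the 6 arrays, against 87.8 to 971 elsewhere. In that organ 5 of the 10 reached the pooled median. Of 7 measured against the ependyma, 4 were 4-fold lower and 0 higher, beside 7.9% and 5.01% of all genes. Grin1 made up most of the sum and was above the ependyma on all 3 probes, at 39.7 against 26.4 on its brightest. It was at 14.7 in the subfornical organ, 0.435 and 0.931 in the pineal gland and 151 in total brain. Slc17a6, at 94.1 and 53.5, made up most of the pineal sums. The 7 markers of the habenula, which lies near this organ, summed to 33.4 against 7.91 to 212 elsewhere. Calb2, at 23.1, and Tac1, at 7.50, made up most of the 33.4. Chrna3, at 123 and 84.6, and Chrnb4, at 86.7 and 62.6, made up most of the pineal sums. These 2 were at 0.745 and 0.615 in the subcommissural organ. Pou4f1, Gpr151 and Chrnb3 were under the pooled median on all arrays, so the sum is no measure of habenula tissue. The 7 markers of monoamine neurons summed to 15.1 in the subcommissural organ, the lowest of all arrays. The 6 Schwann cell markers summed to 24.5, within the range of 18.8 to 118 of the other arrays. The 9 choroid plexus markers summed to 536 in the subcommissural organ, the highest of all arrays, against 105 to 394 elsewhere, with 5 of 9 at the pooled median. Calml4, at 319, made up most of that sum. Otx2 was at 124 there against 23.7 in the ependyma and 19.4 in total brain, and Kcne2 at 29.1 against 0.495 and 4.24. Both were higher in the pineal gland, Otx2 at 214 and 140 and Kcne2 at 58.5 and 34.8. Ttr, the defining gene of the choroid plexus, was at 1.61 in the subcommissural organ, the lowest of the 6 arrays. Astrocyte markers summed to 186 in the subcommissural organ and 762 in the ependyma, and 5 of the 8 measured were 4-fold lower, beside 7.9% of all genes. Microglia markers summed to 83.0, the lowest of all arrays, against 506 in the ependyma, with 5 of 8 lower as well. The fibroblast and mural cell markers summed to 38.1, against 53.6 to 90.0 in the pineal gland, the subfornical organ and total brain and 17.1 in the ependyma. Dcn, at 23.2 against 1.19, was the 1 of 5 measured that was 4-fold higher, beside 5.01% of all genes. The median log2 difference of the list was 0.05 against the ependyma. Oligodendrocyte markers summed to 248 against 301 there, and endothelial markers to 56.9 against 82.1. The part of these markers in the Gfra1 level was not tested.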

How the data were processed

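RNA from 6 samples was read on 1-colour arrays. The deposited table gives each probe of an array 1 intensity, which the values show to be linear. How the authors corrected and scaled these intensities is not given in the sources used here, and the amplification is described per the labels' protocols. A value of -9999 was taken as missing, and 166 of 35129 probes lacking a value on any array were left out. The platform annotation gave 16865 probes 1 symbol and 165 several, and 18099 were not listed. Gene identifiers of 16836 probes were found in the RefSeq table.

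Values were floored at 0.142, the 5th percentile of all arrays together, before taking log2. Each gene was represented by its brightest probe by mean, with every probe shown for the 3 receptors. To count as measured, a gene needed 1.05, the median of all arrays together, on its brighter side, and 4-fold was the size counted; pineal arrays had to lie on 1 side. The pineal gland was tested with limma 3.58.1 in R 4.3.3 (lmFit, eBayes), with p two-sided and adjusted by Benjamini-Hochberg over all measured genes at a threshold of 0.05. The fit was also run on simulated data, in which every array was given the same spread. That run cannot show whether a single array varies as the pineal pair does. Other work used Python 3.11.15. Alternatives were quantile normalization, other filters, floors and pseudocounts, other probes and leaving out a pineal array.

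The receptors and gene lists were chosen with earlier results of these data known. By the rule, named genes were all receptor probes, list genes past 4-fold in the subcommissural organ against ependyma or total brain, ligands and co-receptors, the highest members of marker lists, and the 8 genes nearest to Gfra1 and 3 each nearest to Gfra2 and Ret. The other adaptors, the neurotrophin receptors and the single markers named fall outside it and were chosen after their values were seen. The number of arrays limits the precision.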

Additional observations from a re-analysis of the deposited data

Results flagged for a closer look

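Gfra1 differed from total brain in opposite directions in 2 structures. It was higher in the subcommissural organ, by a log2 difference of 3.98, and lower in the pineal gland, with -2.60, on its brightest probe. The second probe gave 4.02 and -4.10, the latter at least 6.61-fold lower. The third probe was under the pooled median in both the pineal gland and total brain and says nothing on that side. The difference between the structures was not tested, and both values share the total brain array. The subcommissural organ lay 6.58 above the pineal gland when they were set against each other directly.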

How the results depend on the processing

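Gfra1 stayed higher in the subcommissural organ than in each other tissue under every alternative run. The larger moves of its log2 differences came from other probes. Its dimmest probe gave 3.65, 4.80 and 3.02 against the ependyma, total brain and the pineal gland, all under the pooled median, so that only the bound of 1.91 can be read. The second gave 5.65 against the subfornical organ and 8.12 against the pineal gland, where the bound is 6.75, and the mean of its probes 5.05 against the ependyma and 5.91 against the pineal gland. Averaging Gfra2 with its dim probe gave 0.36, -0.20, -0.047 and -0.48 against the ependyma, total brain, the subfornical organ and the pineal gland, the first on the other side of 0. For Ret in the subcommissural organ the mean of its probes gave 0.86 against the ependyma. The second probe gave 1.72 against the ependyma, where the bound is 1.40, 0.69 against total brain and 1.16 against the subfornical organ. The dimmest gave -2.08 against total brain, where the bound is -0.30. Against the pineal gland Ret was at 1.86 with a floor at the 25th percentile, 1.14 with a pseudocount of 1, 1.16 with the mean of its probes and 1.10 on the second probe, and from 2.11 to 3.51 with a pineal array left out.

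In the pineal gland against total brain, the limma call of Gfra1 was lost with a floor at the 25th percentile (-2.60, adjusted p = 0.10), without a filter (-2.60, adjusted p = 0.058) and with the mean of its probes (-1.64, adjusted p = 0.071), and its second probe gave -4.10. Ret lost the call with that floor (-3.12, adjusted p = 0.091), and its other probes gave -0.41 and -1.65. For the last of these the bound is -0.30. With a pineal array left out Ret ran from -4.77 to -3.37. Against the ependyma the second probe of Gfra1 gave -2.32, where the bound is -0.94. Ret was at -3.05 after quantile normalization and without a filter, at -2.11 with that floor and -1.30 with the pseudocount, with no call in any of these. The mean of its probes gave -0.30, and it ran from -3.76 to -2.35 with a pineal array left out. Its second probe turned the sign, to 0.61 against the ependyma, where the bound is 0.29, and 0.054 against the subfornical organ. The cause of these changes was not tested.

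With the pseudocount the genes at 4-fold in the subcommissural organ were 510 against the ependyma, 1307 against total brain, 940 against the subfornical organ and 953 against the pineal gland, and with only genes past the 75th percentile 569, 1423, 1052 and 1054, from 1147, 2163, 1757 and 1637. For the pineal gland they were 1132 and 1246 against total brain, from 1928, and 948 and 1036 against the ependyma, from 1638. Limma calls against total brain were 2178, and 1227 after quantile normalization, 1018 without a filter and 0 with the floor at the 25th percentile, where 2490 genes had an unadjusted p under 0.05. Against the ependyma they were 1821, 1115, 731 and 0, with 2125 unadjusted. Quantile normalization moved the median of all genes from -0.29 to 0.01 for the subcommissural organ against total brain, and from -0.41 to -0.06 for the ependyma against total brain, where the share of higher calls went from 44.0% to 56.1%. No paired analysis was possible because only the pineal gland has more than 1 array. Levels near the pooled median, as for Ret, limit what can be read.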

Other observations

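Receptors of the neurotrophins, another family of growth factors for neurons, were listed beside those of the GDNF family. Of 5 listed genes 4 had a named probe, and 3 were measured in the subcommissural organ against the ependyma and against total brain. None was 4-fold apart in either, beside 12.9% and 23.7% of all genes. Ntrk2, the receptor for brain-derived neurotrophic factor, was at 198 in the ependyma, 159 in the subcommissural organ, 151 in the subfornical organ, 61.8 in total brain, and 44.7 and 20.0 in the pineal gland. On this probe the 3 ventricular structures lay above total brain, and both pineal arrays beneath it. On the second probe the subcommissural organ was at 2.41 against 3.53 in total brain, and on the third at 2.16 against 2.74, so its place above total brain holds for the brightest probe alone; the other probes were under the pooled median. In limma Ntrk2 was lower in the pineal gland than in the ependyma, by a log2 difference of -2.72 with an adjusted p of 0.0014, on both arrays. It was the 1 of 3 measured that was called there, beside 20.3% of all genes called and 13.0% lower. Ntrk3, the receptor for neurotrophin 3, was at 8.21 in total brain and between 2.63 and 4.29 elsewhere. Sort1, a sorting receptor that also binds precursors of neurotrophins, was at 322 in total brain, 290 in the subfornical organ, 245 in the ependyma, 134 in the subcommissural organ, and 118 and 80.3 in the pineal gland.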
